A study of Homo sapiens with 12 samples.

Results

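The transcriptomes of MDA-MB-468 cells under ipatasertib and under tazemetostat were set directly against each other, with 3 libraries of each drug and no untreated control in the comparison. These are 6 of the 12 libraries of the series, chosen by their treatment label, and all 23228 genes of the count tables were considered. MDA-MB-468 is an established line of human triple-negative breast cancer of the basal type. In the ipatasertib group, cells carried in DMSO from day -5 received 5 µM ipatasertib on day 0 in medium with 2% serum. In the tazemetostat group, cells received 5 µM tazemetostat from day -5, across a pair of passages, and were moved to the same low-serum medium on day 0. Poly(A) RNA of both groups was collected 24 h after day 0. One drug had therefore acted for 1 day and the other for 6 days, and in this comparison the drug and the length of exposure cannot be told apart. The remaining 6 libraries, 3 of the combination and 3 of DMSO alone, were used to place levels and in an alternative fit of all 12 libraries. The libraries of a group are lettered A to C; no label says whether the letters stand for separate cultures, so a p-value reflects only how far these libraries scatter, and that scatter may be technical.

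Ipatasertib occupies the ATP pocket of the kinase AKT, which relays signals from growth factor receptors through PI3K. Active AKT keeps FOXO transcription factors out of the nucleus, and FOXO factors that re-enter it are known to induce receptors and adaptors that feed back on the pathway. Tazemetostat blocks EZH2, the methyltransferase of Polycomb repressive complex PRC2, which places a repressive methyl mark on histone H3 at developmental and lineage genes; that mark is lost over several cell divisions once the enzyme is blocked. The line is known for amplified EGFR.

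The 6 libraries held between 18926477 and 26070000 counts in genes, at which 3 counts correspond to 0.115 to 0.159 CPM, the counts of a gene scaled to a fixed library total. Markers of the line were present in both groups: KRT5, a basal keratin, had 1128, 1170.2 and 1252 CPM with ipatasertib and 984, 1052 and 1055 CPM with tazemetostat, and EGFR had 2675, 2119.5 and 2052 CPM with ipatasertib and 1179, 1361 and 1233 CPM with tazemetostat. ESR1, the oestrogen receptor gene, averaged 1.57 CPM with ipatasertib and 1.83 CPM with tazemetostat. Lists for other cell types were low or rested on 1 gene that epithelial cells also express. Fibroblast markers summed to 637 to 753 CPM with ipatasertib and 537 to 579 CPM with tazemetostat, nearly all of it S100A4, while THY1 had no count. The sum hides the other members. Of 5 fibroblast markers tested, 1 was higher with ipatasertib, S100A4, and 3 were lower. Among the lower was COL1A1, at 5.21 CPM with ipatasertib and 14.6 CPM with tazemetostat on average. Leukocyte markers summed to 79.6 to 101 CPM with ipatasertib and 57.7 to 65.5 CPM with tazemetostat, mostly CD14, with no count of CD3D or MS4A1. Endothelial markers summed to 32.7 to 34.5 CPM with ipatasertib and 22.3 to 27.2 CPM with tazemetostat, mostly KDR, with TIE1 at no count. Of 4 endothelial markers tested, 2 were higher and 1 lower with ipatasertib. The lower one was ESAM, at 2.49 CPM with ipatasertib and 10.3 CPM with tazemetostat on average. In skeletal, nerve and liver markers the sums were 1.67 to 2.15 CPM with ipatasertib and 1.21 to 1.32 CPM with tazemetostat. Genes took 63.2% ± 0.637 of the counted reads with ipatasertib and 66.2% ± 0.98 with tazemetostat (SD, n = 3 each; exact permutation p = 0.1 two-sided, the smallest that 3 against 3 allows). By the scatter of counts between pairs of libraries, B and C lay closest together in both groups and A stood further off. On the second principal component of the 6 libraries this held for tazemetostat only, with A at -15.4 and B and C at 10.9 and 4.9. With ipatasertib B was the one apart, at -7.3, and A and C were at 5.3 and 1.7. The part of the A libraries in the results was checked by leaving them out.

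In the fit of all 6 libraries almost as many genes differed between the drugs as did not, and the large differences lay mostly on one side. Of 14153 genes tested with edgeR's quasi-likelihood test and Benjamini-Hochberg adjustment at 0.05, 3114 (22.0%) were higher and 3492 (24.7%) lower with ipatasertib. Libraries of the groups did not overlap in 3736 tested genes (26.4%) with ipatasertib higher and in 3972 (28.1%) with ipatasertib lower. Non-overlap in a gene named below is to be read beside these shares. Counts of called members of any list are to be read beside the 22.0% higher and 24.7% lower of all tested genes. The median log2 fold change, ipatasertib over tazemetostat, was 0.006, which the scaling of the libraries itself places near 0. Among differences of at least 1 on the log2 scale, 305 genes (2.16%) were higher and 1119 (7.91%) lower with ipatasertib. Between 3 and 5 on that scale 8 genes were higher and 182 lower, and no gene was higher by 5 or more, whereas 160 were lower by that much. Many of the large differences were between a gene that was read and one that was nearly silent: 634 of the 1119 lower genes (56.7%) averaged under 1 CPM with ipatasertib, and 123 of the 305 higher ones (40.3%) averaged under 1 CPM with tazemetostat. The first principal component of the 6 libraries held 85.9% of the variance, with the ipatasertib libraries at 31.1 to 31.5 and the tazemetostat libraries at -32.3 to -30.8. In bulk RNA, fewer cells of a kind and less RNA per cell cannot be told apart.

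**Figure D1:**
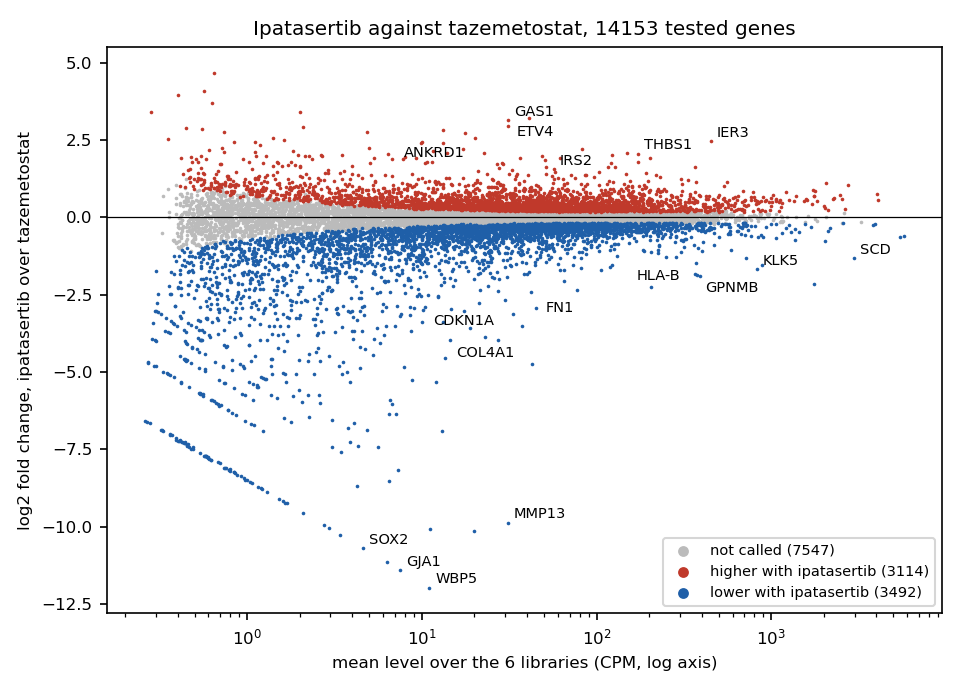
Log2 fold change (ipatasertib over tazemetostat) against the mean level over the 6 libraries in CPM on a log axis, 1 point per tested gene, coloured by the edgeR call. The 3114 higher genes stay within 5 log2 units of 0, whereas 160 of the 3492 lower genes extend past -5. The straight bands at low levels are genes with 0, 1 or a few counts in the ipatasertib libraries, whose fitted fold change depends on the prior count.

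A set of 104 genes was read with tazemetostat and all but absent with ipatasertib, by the rule of a mean of at least 1 CPM in one group and at most 3 counts summed over the other. Of these, 47 had no count in any ipatasertib library. The converse set held 1 gene, the chemokine receptor gene CCR2, with 1.51, 1.18 and 1.03 CPM with ipatasertib and 0.0528, 0.0376 and 0.042 CPM with tazemetostat (3 counts in all; ratio 28.6, 95% counting interval 9.44 to 141). This converse set, read only with ipatasertib, held 3 genes without tazemetostat library A and 2 without tazemetostat library C. Such intervals and floors describe counting error alone, because the reads carry no molecular identifiers and are not independent molecules. Levels of the 104 genes with tazemetostat ran from 1 to 40 CPM, with a median of 1.68.

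The most abundant was CNTNAP2, which encodes a neurexin-family adhesion protein of axons. It had 0, 0 and 0.0794 CPM in the ipatasertib libraries, against 40.3, 38.4 and 41.3 CPM in the tazemetostat libraries, a ratio of 1324 (95% counting interval 366 to 10938) in favour of tazemetostat. MECOM, the zinc-finger factor EVI1 known from leukaemia, had 0.0443, 0 and 0 CPM in the ipatasertib libraries, against 24.9, 20.4 and 21.9 CPM in the tazemetostat libraries. Both genes were thus at background in the ipatasertib cells and at the level of a moderately expressed gene in the tazemetostat cells. WBP5 had no count with ipatasertib and 22.4, 22 and 21.9 CPM with tazemetostat, at least 489-fold lower with ipatasertib against the floor of 3 counts over the group. GJA1, which encodes the gap junction protein connexin 43, had no count with ipatasertib and 15.3, 13.7 and 16.1 CPM with tazemetostat, at least 332-fold lower. ODZ3, a teneurin of neuronal wiring, likewise had no count with ipatasertib and 12.5, 13.8 and 11.4 CPM with tazemetostat, at least 278-fold lower. The set also held receptor genes known mainly from other tissues: AGTR1, the angiotensin receptor gene, had no count with ipatasertib and 8.08, 6.62 and 5.75 CPM with tazemetostat, and HTR3A, a subunit of a serotonin-gated channel, had no count with ipatasertib and 6.71, 5.68 and 5.29 CPM with tazemetostat. The tazemetostat replicates of these genes lay close together, as the plot of the 16 most abundant members shows.

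**Figure D2:**
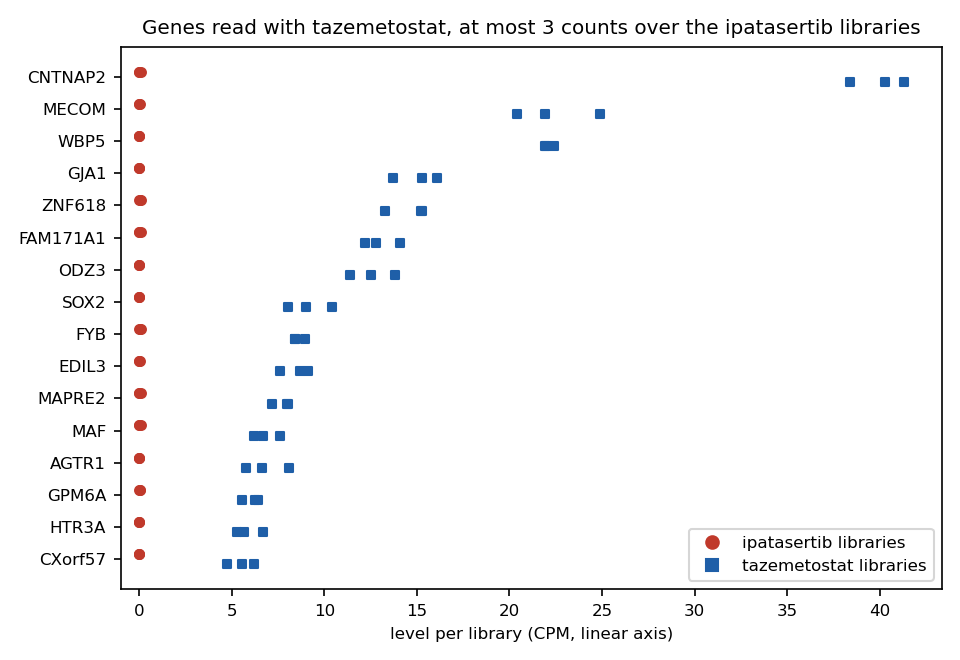
Level in each library, in CPM on a linear axis, of the 16 most abundant of the 104 genes read with tazemetostat and at most 3 counts over the ipatasertib libraries; circles are ipatasertib libraries and squares tazemetostat libraries. The ipatasertib points all sit at or next to 0, while CNTNAP2 reaches 38.4 to 41.3 CPM with tazemetostat.

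Among developmental transcription factors that Polycomb is known to hold silent in differentiated cells, those called were lower with ipatasertib. Of 59 listed, 30 were expressed enough to be tested; a member silent in one group passed that filter through the other, so the counts describe those 30 alone. With ipatasertib, 17 were lower and 0 higher by edgeR, with a median log2 fold change of -0.57; at an unadjusted p under 0.05 the higher ones numbered 2, DESeq2 called 1, and edgeR called 1 with no filter on low counts and 3 without tazemetostat library A. SOX2, a factor of pluripotent and neural progenitors, had no count with ipatasertib and 9.03, 8.05 and 10.4 CPM with tazemetostat, at least 203-fold lower. TBX3, a T-box factor of limb and mammary development, had 0.0887, 0.269 and 0.159 CPM in the ipatasertib libraries, against 13.9, 13.8 and 14.6 CPM in the tazemetostat libraries (edgeR log2 fold change -6.36 ± 0.22 SE, adjusted p = 4.05e-13). Factors with a level in both groups differed less: SOX11, of neural development, had 18.4, 16.3 and 16.1 CPM with ipatasertib and 44.5, 44.3 and 43.8 CPM with tazemetostat, and MEIS1, a partner of HOX proteins, had 4.26, 4.03 and 4.05 CPM with ipatasertib and 9.56, 10.6 and 11.8 CPM with tazemetostat. Their groups did not overlap, as in 28.1% of all tested genes in that direction. HOXC8, HOXC10 and IRX3 are examples of the 13 tested members that were not called.

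Tumour genes held to be silenced through EZH2 did not move one way. Of 24 tested, 8 (33.3%) were higher and 8 (33.3%) lower with ipatasertib, with a median of 0.11, beside 22.0% and 24.7% of all tested genes. NOV, a matricellular protein of the CCN family, had 10.5, 10.8 and 10.2 CPM in the ipatasertib libraries, against 44.6, 36 and 38.4 CPM in the tazemetostat libraries (edgeR log2 fold change -1.92 ± 0.101 SE, adjusted p = 7.56e-11). RAP1GAP, a GTPase-activating protein of RAP1, had 12.1, 11 and 10.6 CPM with ipatasertib and 27.5, 32.2 and 30.7 CPM with tazemetostat, and RARB, a retinoic acid receptor, had 2.48, 2.04 and 1.87 CPM with ipatasertib and 6.49, 5.38 and 5.04 CPM with tazemetostat; both were lower with ipatasertib in every library. TIMP3, an inhibitor of matrix metalloproteinases, went the other way, with 339, 314 and 300.4 CPM in the ipatasertib libraries, against 87.3, 82.4 and 81.7 CPM in the tazemetostat libraries (edgeR log2 fold change 1.92 ± 0.0744 SE, adjusted p = 1.46e-12).

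The messages of the drug targets themselves differed little. EZH2 had 85.9, 86.8 and 83.3 CPM in the ipatasertib libraries, against 118, 118 and 106 CPM in the tazemetostat libraries (edgeR log2 fold change -0.42 ± 0.0737 SE, adjusted p = 0.000163), and its paralogue EZH1 had 18.2, 16.6 and 16.3 CPM with ipatasertib and 9.66, 13.2 and 11.8 CPM with tazemetostat (edgeR log2 fold change 0.55 ± 0.113 SE, adjusted p = 0.00069), so that the pair differed in opposite directions. EED, the PRC2 subunit that reads the mark, averaged 37.5 ± 0.506 CPM with ipatasertib and 45.6 ± 2.51 CPM with tazemetostat (adjusted p = 0.00732 by edgeR; SD, n = 3 each). Of 15 PRC2 subunits and demethylases tested, 2 (13.3%) were higher and 3 (20%) lower, no more than the 22.0% and 24.7% of all tested genes. The higher ones were EZH1 and the demethylase KDM6A, at 21.9 ± 2.5 CPM with ipatasertib and 18.1 ± 0.937 CPM with tazemetostat (log2 fold change 0.27, adjusted p = 0.0356). The KDM6A call was lost without ipatasertib library A or B, or tazemetostat library C (adjusted p of 0.149, 0.112 and 0.14), and with DESeq2 (0.0603) or library totals (0.0662). AKT1 had 149, 140 and 157 CPM with ipatasertib and 167, 185 and 184 CPM with tazemetostat (log2 fold change -0.26, adjusted p = 0.00728; adjusted p = 0.0501 without ipatasertib library B). AKT2 had 161, 149 and 157 CPM with ipatasertib and 148, 177 and 166 CPM with tazemetostat, with overlap (adjusted p = 0.447; without the A libraries the value was -0.17, adjusted p = 0.0112).

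Genes under FOXO control were mostly higher with ipatasertib, with several prominent exceptions. Of 33 tested of 36 listed, 20 (60.6%) were higher and 9 (27.3%) lower, beside the 22.0% and 24.7% of all tested genes, and the median log2 fold change was 0.42. YPEL3, a small nuclear protein linked to growth arrest, had 51.2, 56.5 and 65.3 CPM in the ipatasertib libraries, against 14.6, 15.8 and 15.7 CPM in the tazemetostat libraries (edgeR log2 fold change 1.91 ± 0.0986 SE, adjusted p = 6.45e-11). IRS2, the adaptor that couples insulin and IGF receptors to PI3K, had 84.4, 87.4 and 82.9 CPM in the ipatasertib libraries, against 29.1, 27.3 and 29.4 CPM in the tazemetostat libraries (edgeR log2 fold change 1.57 ± 0.0776 SE, adjusted p = 3.05e-11). INSR, the insulin receptor gene, had 112, 115 and 114 CPM in the ipatasertib libraries, against 55.8, 57.8 and 56.9 CPM in the tazemetostat libraries (edgeR log2 fold change 1 ± 0.0712 SE, adjusted p = 3.43e-09). In each of these genes every ipatasertib library lay above every tazemetostat library, and DMSO levels, at 14.1, 28.6 and 54.2 CPM on average, were close to those with tazemetostat. TNFSF10, the death ligand TRAIL, had 279, 287 and 274 CPM with ipatasertib and 109.8, 102 and 99.6 CPM with tazemetostat, and FBXO32, a ubiquitin ligase of muscle wasting, had 147, 137 and 138 CPM with ipatasertib and 89.5, 84.9 and 82.4 CPM with tazemetostat.

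The exceptions included a pair of the widely used FOXO readouts. CDKN1A, which encodes the CDK inhibitor p21, had 6.52, 4.84 and 8.66 CPM in the ipatasertib libraries, against 51.2, 66.1 and 61.1 CPM in the tazemetostat libraries (edgeR log2 fold change -3.13 ± 0.147 SE, adjusted p = 1.81e-11). PPARGC1A, the coactivator PGC-1alpha of mitochondrial and gluconeogenic genes, had 1.33, 1.45 and 1.63 CPM in the ipatasertib libraries, against 13.8, 14.1 and 12.5 CPM in the tazemetostat libraries (edgeR log2 fold change -3.19 ± 0.144 SE, adjusted p = 9.49e-12). For CDKN1A the DMSO mean of 18.2 CPM lay between the drugs, whereas for PPARGC1A the DMSO mean of 0.967 CPM was near that of ipatasertib. DDIT4, a stress-induced inhibitor of mTOR signalling, was lower as well, at 85.5, 82.7 and 82.7 CPM with ipatasertib and 152, 165 and 162 CPM with tazemetostat. The FOXO factors FOXO1 and FOXO3 were themselves lower with ipatasertib, FOXO1 at 12.7 ± 0.592 CPM with ipatasertib and 23 ± 2.99 CPM with tazemetostat and FOXO3 at 184 ± 8.38 CPM with ipatasertib and 248 ± 7.26 CPM with tazemetostat (SD, n = 3 each).

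The promoter of YPEL3, the FOXO-list gene with the largest difference in favour of ipatasertib, is shown because it holds the core FOXO letters TGTTTAC (either strand) at its annotated start. It is the RefSeq window from 250 bases before to 50 after the start, GRCh38.p14 chr16:30096164-30096463, minus strand, printed 5′ to 3′ with the motif, here as its reverse complement, in capitals.
YPEL3: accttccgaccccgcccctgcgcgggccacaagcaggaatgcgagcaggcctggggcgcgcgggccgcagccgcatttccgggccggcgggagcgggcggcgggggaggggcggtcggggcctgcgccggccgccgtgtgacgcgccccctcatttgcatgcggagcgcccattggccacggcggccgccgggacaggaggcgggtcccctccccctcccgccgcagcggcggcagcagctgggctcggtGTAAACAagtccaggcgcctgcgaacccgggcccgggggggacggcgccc
Of the 33 tested FOXO-list genes, 30 had a promoter in the RefSeq table, and 4 of these (13.3%) held the letters, against 931 of 27305 promoters in all (3.41%). A match is a description and not a site or a cause.

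Within the PI3K pathway single inputs differed in both directions, though the lower share was near that of all tested genes. Of 28 tested pathway genes 12 (42.9%) were higher and 7 (25%) lower with ipatasertib (median 0.13). Of 31 receptor tyrosine kinase genes 15 (48.4%) were higher and 7 (22.6%) lower (median 0.30). Over all tested genes the shares were 22.0% higher and 24.7% lower. PIK3R1, the p85alpha regulatory subunit of PI3K, had 40.4, 39.9 and 38.3 CPM in the ipatasertib libraries, against 131, 118 and 119.6 CPM in the tazemetostat libraries (edgeR log2 fold change -1.63 ± 0.0771 SE, adjusted p = 1.76e-11). PIK3C2B, a class II PI3K, had 21.1, 16.3 and 17.9 CPM with ipatasertib and 41.3, 50.1 and 45.6 CPM with tazemetostat, and GRB10, an adaptor that restrains insulin signalling, had 24.6, 26.5 and 25.5 CPM with ipatasertib and 51.1, 59.8 and 53.9 CPM with tazemetostat; all 3 were lower in every ipatasertib library. Among receptors, EGFR averaged 2282 ± 342 CPM with ipatasertib and 1258 ± 93.5 CPM with tazemetostat (edgeR log2 fold change 0.86 ± 0.0899 SE, adjusted p = 5.14e-07), MET, the receptor of hepatocyte growth factor, 249 ± 17.4 CPM with ipatasertib and 128 ± 9.26 CPM with tazemetostat, and KDR, a VEGF receptor, 29.6 ± 0.765 CPM with ipatasertib and 13.7 ± 1.38 CPM with tazemetostat (SD, n = 3 each). Each was higher with ipatasertib in all 3 libraries. RET, the receptor of GDNF-family ligands, was nearly silent with ipatasertib, at 0.931, 0.752 and 0.397 CPM in the ipatasertib libraries, against 6.07, 6.02 and 5.54 CPM in the tazemetostat libraries (edgeR log2 fold change -3.10 ± 0.221 SE, adjusted p = 3.67e-09). EPHB6, an ephrin receptor without kinase activity, had 33.6, 31.2 and 30.7 CPM with ipatasertib and 72, 83 and 77 CPM with tazemetostat.

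Most genes of the transcriptional output of the MAPK pathway, feedback inhibitors included, were higher with ipatasertib. Of 23 tested of 26 listed, 15 (65.2%) were higher and 2 (8.7%) lower with ipatasertib, beside 22.0% and 24.7% of all tested genes. The median of 0.81 was the highest of the lists with 10 or more tested members. The lower ones were EGR3 and CCND1; 1 of them was no longer called without ipatasertib library B or C, or tazemetostat library B or C, and 4 genes were lower with library totals in place of TMM factors. ETV4, an ETS factor induced by ERK, had 57.6, 50.7 and 57.4 CPM in the ipatasertib libraries, against 7.34, 7.15 and 6.97 CPM in the tazemetostat libraries (edgeR log2 fold change 2.95 ± 0.096 SE, adjusted p = 2.37e-13). Its relative ETV5 had 37.6, 31.1 and 34.5 CPM in the ipatasertib libraries, against 6.18, 6.55 and 4.91 CPM in the tazemetostat libraries (edgeR log2 fold change 2.55 ± 0.117 SE, adjusted p = 1.40e-11). IER3, an immediate early survival gene, had 746, 751 and 792 CPM in the ipatasertib libraries, against 134, 135 and 145 CPM in the tazemetostat libraries (edgeR log2 fold change 2.46 ± 0.0713 SE, adjusted p = 7.12e-14). These are differences of 7.73-fold, 5.86-fold and 5.52-fold. No libraries overlapped, which the rule for the 15 largest differences, met by all 3 genes, asked for. The feedback inhibitor SPRY4 had 19.3, 15.8 and 15.8 CPM with ipatasertib and 3.38, 3.39 and 2.69 CPM with tazemetostat (log2 fold change 2.43, adjusted p = 1.41e-10), its relative SPRY2 42.4, 44.5 and 37.8 CPM with ipatasertib and 13.4, 11.9 and 12.7 CPM with tazemetostat, and DUSP6, a phosphatase of ERK, 16.4, 16 and 16.7 CPM with ipatasertib and 8.34, 7.11 and 7.72 CPM with tazemetostat. EGR1 and FOS, which respond within minutes to ERK, were not called: EGR1 averaged 30.1 ± 1.34 CPM with ipatasertib and 27.2 ± 0.984 CPM with tazemetostat and FOS 3.1 ± 0.0825 CPM with ipatasertib and 3.98 ± 0.306 CPM with tazemetostat (SD, n = 3 each). DMSO lay between the drugs for ETV4, IER3 and SPRY4, at means of 14.4, 356 and 5.22 CPM.

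Most of the NF-kB targets expressed enough to be tested were higher as well. Of 28 listed, 14 were tested, 11 (78.6%) were higher and 0 lower with ipatasertib by edgeR (median 0.61), beside 22.0% and 24.7% of all tested genes. None was lower at an unadjusted p under 0.05 or by DESeq2, whereas edgeR called 1 lower with no filter on low counts and 1 when all 12 libraries shared the fit. SAA1, an acute-phase serum amyloid, had 18.8, 25.5 and 25.1 CPM in the ipatasertib libraries, against 3.59, 3.27 and 3.06 CPM in the tazemetostat libraries (edgeR log2 fold change 2.81 ± 0.139 SE, adjusted p = 3.53e-11). SAA2 had 7.49, 8.38 and 9.33 CPM with ipatasertib and 1.58, 1.02 and 1.17 CPM with tazemetostat; these are near-identical copies, and how the counting split shared reads between them is uncertain. LIF, a cytokine of the interleukin-6 family, had 16.4, 16.1 and 16.6 CPM in the ipatasertib libraries, against 4.96, 8.69 and 8.48 CPM in the tazemetostat libraries (edgeR log2 fold change 1.13 ± 0.146 SE, adjusted p = 6.08e-06). RELB, a subunit of NF-kB, averaged 9.2 ± 0.731 CPM with ipatasertib and 4.42 ± 0.869 CPM with tazemetostat (SD, n = 3 each). The DMSO mean of SAA1, 9.55 CPM, lay between those of the drugs.

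Targets of YAP-TEAD and SRF, which respond to adhesion and the actin skeleton, were 13 of 23 (56.5%) higher and 4 (17.4%) lower with ipatasertib, with a median of 0.43. Of all tested genes 22.0% were higher and 24.7% lower. ANKRD1, a nuclear ankyrin protein, had 36.1, 37.9 and 35.5 CPM in the ipatasertib libraries, against 8.24, 8.61 and 8.85 CPM in the tazemetostat libraries (edgeR log2 fold change 2.09 ± 0.092 SE, adjusted p = 6.93e-12). CTGF, a secreted matricellular protein of the CCN family, had 97.1, 99.6 and 95.4 CPM in the ipatasertib libraries, against 28, 26.1 and 24.1 CPM in the tazemetostat libraries (edgeR log2 fold change 1.90 ± 0.0815 SE, adjusted p = 5.67e-12). AMOTL2, an angiomotin that binds YAP, had 222, 207 and 213 CPM with ipatasertib and 103, 111 and 107 CPM with tazemetostat. Among the lower members, the actin and SRF genes ACTB, TAGLN and VCL were at log2 fold changes of -0.59, -0.46 and -0.34, and AMOTL1 at -0.51. The combination exceeded both single drugs for ANKRD1, at 107 CPM, and CTGF, at 133 CPM on average, beside 5.57 and 23.9 CPM with DMSO.

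The CTGF promoter is shown because it holds the letters ACATTCC, a core bound by TEAD factors, 95 bases before the start. The RefSeq window is GRCh38.p14 chr6:131951323-131951622, minus strand, with the match, as its reverse complement, in capitals.
CTGF: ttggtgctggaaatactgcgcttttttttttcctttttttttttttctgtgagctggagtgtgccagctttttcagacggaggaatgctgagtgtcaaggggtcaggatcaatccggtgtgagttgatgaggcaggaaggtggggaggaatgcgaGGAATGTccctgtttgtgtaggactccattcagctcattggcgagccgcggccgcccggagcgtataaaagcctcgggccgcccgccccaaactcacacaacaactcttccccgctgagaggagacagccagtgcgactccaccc
The letters are in 951 of 27305 promoters (3.48%, either strand). Of the 23 tested list genes 18 (78.3%) had a promoter in the table, which is under the share of members asked for before a motif share over a list is given.

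MYC and most genes of the machinery that builds ribosomes were higher with ipatasertib. Of 28 genes tested, 20 (71.4%) were higher and 0 lower by edgeR, with a median of 0.29, beside 22.0% and 24.7% of all tested genes. None of the 28 was lower at an unadjusted p under 0.05 or by DESeq2. The differences were small apart from that of MYC. MYC had 103, 99.3 and 105 CPM in the ipatasertib libraries, against 38.2, 42.5 and 39.3 CPM in the tazemetostat libraries (edgeR log2 fold change 1.36 ± 0.077 SE, adjusted p = 1.82e-10). NPM1, the nucleolar protein nucleophosmin, had 1669, 1919 and 1851 CPM in the ipatasertib libraries, against 1386, 1160 and 1192 CPM in the tazemetostat libraries (edgeR log2 fold change 0.54 ± 0.0777 SE, adjusted p = 1.87e-05). FBL, which methylates ribosomal RNA as fibrillarin, had 335, 356 and 359 CPM in the ipatasertib libraries, against 246, 251 and 262 CPM in the tazemetostat libraries (edgeR log2 fold change 0.47 ± 0.0676 SE, adjusted p = 1.97e-05). POLR1B, a subunit of RNA polymerase I, averaged 68.4 ± 3.16 CPM with ipatasertib and 50.5 ± 3.47 CPM with tazemetostat (SD, n = 3 each). All 4 had non-overlapping groups, as did 26.4% of all tested genes in that direction. In DMSO, NPM1 averaged 1735 CPM and FBL 358 CPM, close to ipatasertib, whereas MYC at 69.9 CPM lay between the drugs; with the combination MYC was at 30.4 CPM, below both.

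The FBL promoter, GRCh38.p14 chr19:39846330-39846629, minus strand in RefSeq, is shown because it carries the E-box CACGTG, the letters bound by MYC and its relatives, 6 bases after the start. The E-box is in capitals.
FBL: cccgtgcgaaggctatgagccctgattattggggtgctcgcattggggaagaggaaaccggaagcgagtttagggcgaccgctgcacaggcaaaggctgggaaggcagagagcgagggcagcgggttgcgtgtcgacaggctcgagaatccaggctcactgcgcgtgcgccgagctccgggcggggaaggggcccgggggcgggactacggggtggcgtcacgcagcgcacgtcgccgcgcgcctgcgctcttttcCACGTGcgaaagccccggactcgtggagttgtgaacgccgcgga
The E-box is in 2030 of 27305 promoters (7.43%; it reads the same on both strands). Here 21 of the 28 list genes (75%) had a promoter, again under the share asked for.

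Most genes of cholesterol and fatty acid synthesis were lower with ipatasertib. Of 26 genes of cholesterol synthesis and uptake, 24 (92.3%) were lower and 0 higher by edgeR (median -0.49), beside 24.7% and 22.0% of all tested genes. None of the 26 was higher at an unadjusted p under 0.05 or by DESeq2. Among those not called was the regulator SREBF2, at 278 ± 20.2 CPM with ipatasertib and 266 ± 24.2 CPM with tazemetostat (SD, n = 3 each). STARD4, a cytosolic sterol carrier, had 12.7, 9.35 and 10.7 CPM in the ipatasertib libraries, against 39.2, 36.5 and 38.1 CPM in the tazemetostat libraries (edgeR log2 fold change -1.79 ± 0.104 SE, adjusted p = 2.82e-10). INSIG1, which retains SREBP in the endoplasmic reticulum, had 129, 146 and 145 CPM in the ipatasertib libraries, against 343, 289 and 305 CPM in the tazemetostat libraries (edgeR log2 fold change -1.16 ± 0.0804 SE, adjusted p = 2.86e-09). MVD, a mevalonate pathway decarboxylase, had 161, 143 and 169 CPM with ipatasertib and 264, 318 and 316 CPM with tazemetostat. Of 22 fatty acid synthesis genes, 16 (72.7%) were lower and 2 higher, ACACA and ACSS2 (median -0.41). SCD, the stearoyl-CoA desaturase and one of the most abundant messages in the cells, had 1632, 1682 and 1806 CPM in the ipatasertib libraries, against 4231, 4333 and 4170.2 CPM in the tazemetostat libraries (edgeR log2 fold change -1.31 ± 0.0641 SE, adjusted p = 2.74e-11). ELOVL6, an elongase, had 12, 11.9 and 12.1 CPM with ipatasertib and 38.3, 33.1 and 35.8 CPM with tazemetostat, and LPIN1, a phosphatidate phosphatase, 79.2, 73.9 and 78.7 CPM with ipatasertib and 186, 184 and 185 CPM with tazemetostat. SREBF1, the regulator of fatty acid genes, averaged 89.7 ± 9.96 CPM with ipatasertib and 161 ± 16.4 CPM with tazemetostat (SD, n = 3 each). DMSO means were nearer tazemetostat for SCD (3464 CPM), INSIG1 (266 CPM) and MVD (296 CPM), and nearer ipatasertib for LPIN1 (92.7 CPM) and ELOVL6 (16.8 CPM).

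Glycolytic and hypoxia-regulated genes were also mainly lower, 19 of 30 (63.3%), and 1 was higher (median -0.29). ADM, the vasodilator peptide adrenomedullin, had 5.01, 6.56 and 5.56 CPM in the ipatasertib libraries, against 17.2, 14.4 and 16.5 CPM in the tazemetostat libraries (edgeR log2 fold change -1.49 ± 0.122 SE, adjusted p = 2.26e-08). NDRG1, a hypoxia-induced protein, had 37.9, 30.4 and 31.5 CPM with ipatasertib and 64.3, 74.6 and 70.2 CPM with tazemetostat, and PKM2, the pyruvate kinase gene under an older symbol, had 1053, 1012 and 1009 CPM with ipatasertib and 1614, 1802 and 1763 CPM with tazemetostat. The exception was ENO1, an enolase, with 2158, 2166 and 2208 CPM in the ipatasertib libraries, against 1315, 1366 and 1337 CPM in the tazemetostat libraries (edgeR log2 fold change 0.70 ± 0.061 SE, adjusted p = 4.59e-08). In the respiratory chain most genes were not called. Of 35, 9 (25.7%) were lower, near the 24.7% of all tested genes, and 3 were higher (median -0.11). The higher count was 8 without the A libraries. CYCS, cytochrome c, was the member that differed most, at 319.9, 329 and 329.6 CPM in the ipatasertib libraries, against 647, 566 and 619 CPM in the tazemetostat libraries (edgeR log2 fold change -0.90 ± 0.07 SE, adjusted p = 1.11e-08).

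Most replication and mitotic genes were not called, and those that were called were mainly lower with ipatasertib. Of 40 replication genes 15 (37.5%) were lower and 3 (7.5%) higher (median -0.09), beside 24.7% and 22.0% of all tested genes. Without tazemetostat library B, 6 were higher. RRM2, the small subunit of ribonucleotide reductase, had 167, 159 and 153 CPM in the ipatasertib libraries, against 309, 296 and 285 CPM in the tazemetostat libraries (edgeR log2 fold change -0.89 ± 0.07 SE, adjusted p = 1.25e-08). CCNE1 and CCNE2, the E-type cyclins, had 19.4, 19.8 and 19.2 CPM with ipatasertib and 32.9, 33.7 and 33.6 CPM with tazemetostat, and 19.6, 22.7 and 20 CPM with ipatasertib and 41.8, 35.6 and 34.1 CPM with tazemetostat. CDT1, a licensing factor, was higher, at 98, 93.2 and 111 CPM with ipatasertib and 59, 68.2 and 69.6 CPM with tazemetostat. Of 34 mitotic genes 11 (32.4%) were lower and 0 higher by edgeR (median -0.09), beside the same 24.7% and 22.0%. At an unadjusted p under 0.05, 3 were higher, and DESeq2 called 1 higher. The lower count was 7 without ipatasertib library C or tazemetostat library C, and the higher count was 1 without ipatasertib library A, 3 without tazemetostat library A and 6 without both A libraries. KIF20A, a kinesin of cytokinesis, had 218, 233 and 247 CPM with ipatasertib and 316, 292 and 300.2 CPM with tazemetostat. MKI67, the proliferation marker, overlapped between the groups, with 263, 195 and 204 CPM with ipatasertib and 235, 360.4 and 311 CPM with tazemetostat (log2 fold change -0.45, adjusted p = 0.00724; 0.0939 with DESeq2). Among CDK inhibitors and G1 cyclins, 9 of 17 (52.9%) were lower and 3 (17.6%) higher, beside the same shares of all tested genes. CDKN2B, the inhibitor p15, averaged 35.4 ± 1.26 CPM with ipatasertib and 61.1 ± 4.24 CPM with tazemetostat (SD, n = 3 each), and CCND1, cyclin D1, 85.3 ± 3.79 CPM with ipatasertib and 117 ± 3.88 CPM with tazemetostat.

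**Figure D3:**
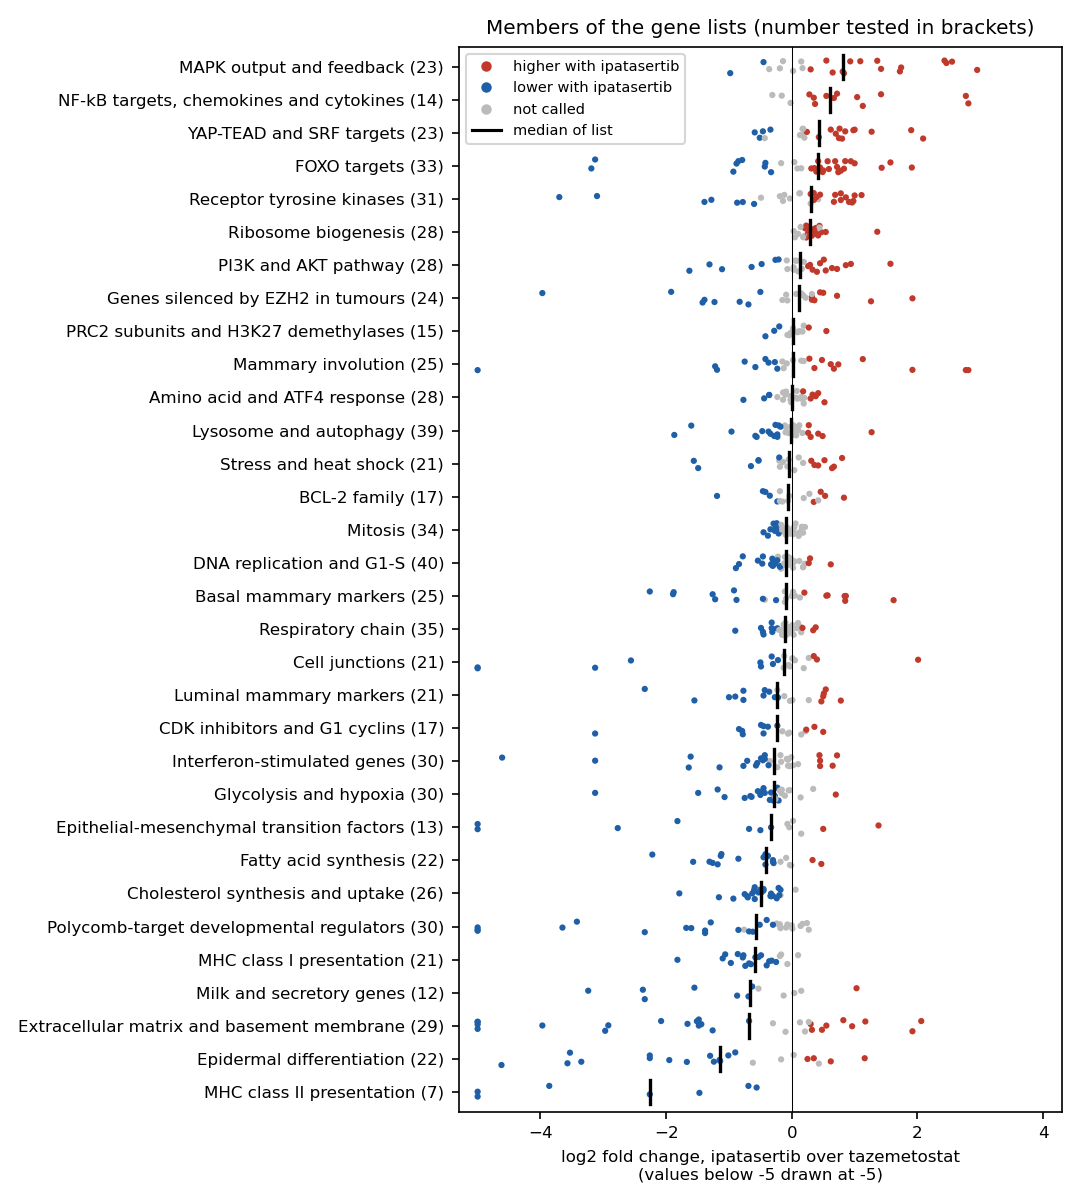
Log2 fold change (ipatasertib over tazemetostat) of every tested member of the pathway and lineage lists (the marker lists of the line and of other cell types are not drawn), 1 point per gene, coloured by the edgeR call, with the median as a black bar and lists ordered by it; values below -5 are drawn at -5. Among lists with 10 or more tested members the medians run from 0.81 for MAPK output to -1.14 for epidermal differentiation, beside 0.006 over all tested genes.

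Most genes of class I antigen presentation were lower with ipatasertib. Of 21 genes 17 (81%) were lower and 0 higher by edgeR (median -0.58); none was higher at an unadjusted p under 0.05 or by DESeq2. HLA-B had 149, 163 and 174 CPM in the ipatasertib libraries, against 569, 588 and 564 CPM in the tazemetostat libraries (edgeR log2 fold change -1.82 ± 0.0745 SE, adjusted p = 3.37e-12). HLA-C had 369, 373 and 403 CPM with ipatasertib and 752, 839.8 and 799.9 CPM with tazemetostat, and HLA-F 22.2, 23.7 and 25.1 CPM with ipatasertib and 50.6, 51.4 and 50.6 CPM with tazemetostat. The classical genes resemble one another, so reads shared between them are uncertain. Several accessory genes went the same way. B2M, the light chain of the complex, had 649, 734 and 711 CPM with ipatasertib and 1172, 962 and 1004 CPM with tazemetostat. TAP1, the peptide transporter, had 39.4, 36.1 and 43 CPM with ipatasertib and 65.9, 77 and 72 CPM with tazemetostat. PSMB9, an immunoproteasome subunit, had 14.2, 16.7 and 15.5 CPM with ipatasertib and 29.8, 29.5 and 31.5 CPM with tazemetostat. No libraries overlapped in these genes, as in 28.1% of all tested genes in that direction. The 4 members not called were accessory genes too. TAPBP, PSMB10 and CANX had log2 fold changes of -0.17, -0.19 and -0.07, and ERAP1 0.1. NLRC5, the coactivator of class I genes, averaged 9.25 ± 0.257 CPM with ipatasertib and 14.7 ± 2.11 CPM with tazemetostat (SD, n = 3 each; log2 fold change -0.68, adjusted p = 0.000112). In DMSO, HLA-B averaged 160.1 CPM, HLA-C 376 CPM and B2M 716 CPM, each near its level with ipatasertib. Of 14 class II genes 7 were expressed enough to be tested, most of them through the tazemetostat libraries alone, so a lower value with ipatasertib was built into their choice. HLA-DQB1, for example, had no count with ipatasertib and 1.11, 1.73 and 1.93 CPM with tazemetostat. CTSS, a protease of that pathway, had 4.88, 5.59 and 5.72 CPM with ipatasertib and 9.98, 7 and 7.17 CPM with tazemetostat, and lost its call without the A libraries (adjusted p = 0.0533).

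Interferon-stimulated genes were mixed: 14 of 30 (46.7%) were lower and 5 (16.7%) higher with ipatasertib, beside 24.7% and 22.0% of all tested genes. The median was -0.29, and 3 were higher without ipatasertib library C. IFI44 had 0.576, 0.699 and 0.755 CPM in the ipatasertib libraries, against 6.02, 6.17 and 5.75 CPM in the tazemetostat libraries (edgeR log2 fold change -3.13 ± 0.19 SE, adjusted p = 4.24e-10). GBP1, an interferon-induced GTPase, had 3.86, 4.78 and 4.37 CPM in the ipatasertib libraries, against 14.1, 12.4 and 13.9 CPM in the tazemetostat libraries (edgeR log2 fold change -1.64 ± 0.122 SE, adjusted p = 6.47e-09). IFIT1, which binds viral RNA, had 5.19, 5.43 and 5.44 CPM with ipatasertib and 13.1, 11.2 and 11.5 CPM with tazemetostat. IFITM1, a membrane protein that limits viral entry, was higher, at 56.2, 66.2 and 68.4 CPM with ipatasertib and 40, 38.6 and 42.6 CPM with tazemetostat. The low members did not share a position relative to DMSO, since GBP1 averaged 13 CPM there, as with tazemetostat, and IFIT1 6.49 CPM, nearer ipatasertib.

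The promoters of HLA-F and IFI44 are shown because both hold a pair of spaced half-sites of the interferon response element (either strand), 156 and 18 bases before the start. The RefSeq windows are GRCh38.p14 chr6:29723184-29723483 and chr1:78649539-78649838, both on the plus strand, with the match in capitals.
HLA-F: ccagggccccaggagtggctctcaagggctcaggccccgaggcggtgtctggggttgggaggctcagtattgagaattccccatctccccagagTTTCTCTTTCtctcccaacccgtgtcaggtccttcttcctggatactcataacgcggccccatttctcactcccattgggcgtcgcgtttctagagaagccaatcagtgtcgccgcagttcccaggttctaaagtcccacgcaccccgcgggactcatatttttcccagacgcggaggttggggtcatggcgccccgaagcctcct
IFI44: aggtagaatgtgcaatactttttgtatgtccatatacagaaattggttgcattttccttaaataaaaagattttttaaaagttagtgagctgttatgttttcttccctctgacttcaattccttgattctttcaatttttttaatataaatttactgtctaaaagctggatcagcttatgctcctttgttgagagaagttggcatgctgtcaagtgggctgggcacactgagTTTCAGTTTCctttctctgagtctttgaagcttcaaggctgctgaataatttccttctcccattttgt
Of 21 class I pathway genes, 17 had a promoter in the table, and 7 of these (41.2%) held the letters, against 996 of 27305 in all (3.65%). The windows differ in base composition, with GC shares of 59.7% and 35%.

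Matrix genes held some of the widest differences in the comparison. Of 29 tested of 39 listed, 15 (51.7%) were lower and 9 (31%) higher with ipatasertib (median -0.68), beside 24.7% and 22.0% of all tested genes. Of the tested genes, 3 had no count in 1 group. A member silent in one group passed the filter through the other, so the counts and the median describe those 29 alone. MMP13, a collagenase, had 0.0443, 0.107 and 0.0397 CPM in the ipatasertib libraries, against 72.5, 54.2 and 59.1 CPM in the tazemetostat libraries (edgeR log2 fold change -9.87 ± 0.242 SE, adjusted p = 1.10e-14). COL4A1, a basement membrane collagen chain, had 1.91, 1.45 and 1.79 CPM in the ipatasertib libraries, against 24.9, 28.5 and 28.1 CPM in the tazemetostat libraries (edgeR log2 fold change -3.97 ± 0.131 SE, adjusted p = 2.69e-13). FN1, fibronectin, had 11.3, 9.94 and 10.2 CPM in the ipatasertib libraries, against 81.2, 78.7 and 77.3 CPM in the tazemetostat libraries (edgeR log2 fold change -2.92 ± 0.0877 SE, adjusted p = 9.05e-14). COL4A2, which shares its promoter region with COL4A1 and is read from the other strand, followed it at 2.97, 3.06 and 3.85 CPM with ipatasertib and 22.2, 28.1 and 27.5 CPM with tazemetostat. DMSO levels of these 4 genes were near those with ipatasertib, at 0.0153, 1.95, 15.3 and 3.27 CPM. Higher with ipatasertib was THBS1, thrombospondin, at 309.5, 283 and 242 CPM in the ipatasertib libraries, against 67.4, 67 and 65.3 CPM in the tazemetostat libraries (edgeR log2 fold change 2.06 ± 0.0874 SE, adjusted p = 5.57e-12). Among junction genes 9 of 21 were lower and 3 higher (5 without ipatasertib library A). GJA1, with no count with ipatasertib, was tested only through the tazemetostat libraries. GJB2, connexin 26, had 1.42, 1.18 and 1.95 CPM with ipatasertib and 15.2, 13 and 12.7 CPM with tazemetostat. CDH1, E-cadherin, had 122, 125 and 120.2 CPM with ipatasertib and 164, 181 and 175 CPM with tazemetostat. Of the 13 tested genes tied to epithelial-mesenchymal transition, 7 were lower and 2 higher. VIM, vimentin, had 18.1, 16.3 and 16.4 CPM in the ipatasertib libraries, against 61.4, 57.4 and 61.2 CPM in the tazemetostat libraries (edgeR log2 fold change -1.82 ± 0.0849 SE, adjusted p = 1.40e-11). TWIST1 had 1 count over the ipatasertib libraries and 1.53, 2.29 and 1.93 CPM with tazemetostat, while TWIST2 was higher with ipatasertib, at 7.89, 7.74 and 6.71 CPM with ipatasertib and 2.64, 3.2 and 2.64 CPM with tazemetostat. GRHL2, an epithelial factor, was higher too, at 162, 146 and 142 CPM with ipatasertib and 101, 109.7 and 106 CPM with tazemetostat, so lower levels of mesenchymal and of epithelial members (VIM and CDH1) were seen together.

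**Figure D4:**
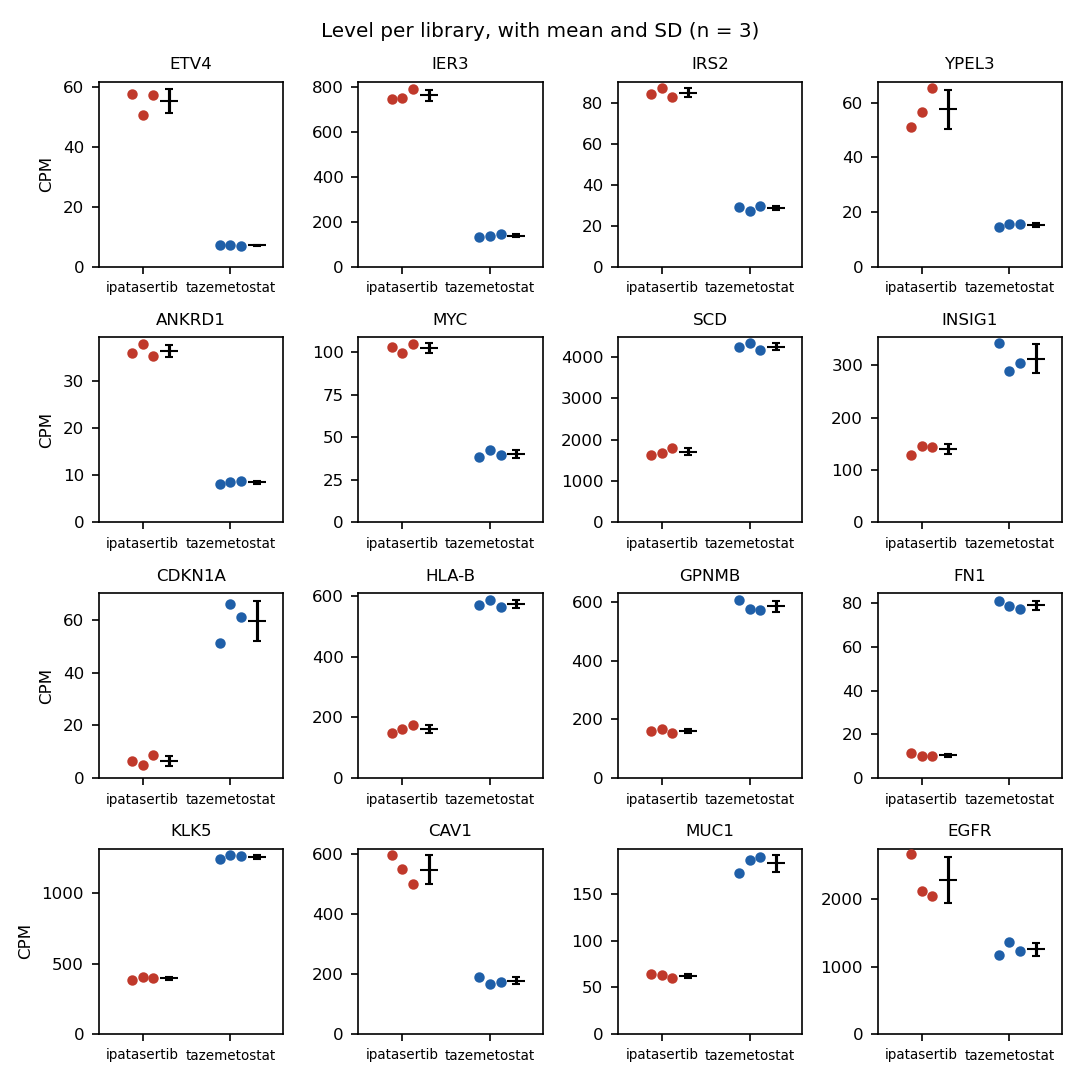
Level of 16 named genes in each library, in CPM on linear axes from 0, with the mean and SD (n = 3) beside the points; ipatasertib is left of tazemetostat. No gene shown has overlapping libraries, and the widest spread is that of EGFR with ipatasertib, 2052 to 2675 CPM.

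Markers of mammary lineages were split. Among luminal markers 11 of 21 (52.4%) were lower and 5 (23.8%) higher with ipatasertib (median -0.23), and among basal markers 9 of 25 (36%) were lower and 7 (28%) higher (median -0.09). Of all tested genes 24.7% were lower and 22.0% higher, the latter near the luminal share. MUC1, an apical mucin, had 64.4, 63 and 60 CPM in the ipatasertib libraries, against 173, 187 and 189.7 CPM in the tazemetostat libraries (edgeR log2 fold change -1.55 ± 0.0737 SE, adjusted p = 1.81e-11). XBP1, a factor of secretory cells, had 254, 248 and 257 CPM with ipatasertib and 466, 475 and 477 CPM with tazemetostat, and AGR2, a secretory chaperone, 33.6, 36.7 and 34.1 CPM with ipatasertib and 75.1, 69 and 64.2 CPM with tazemetostat. ELF5, the factor of luminal progenitors, averaged 1.01 ± 0.228 CPM with ipatasertib and 5.13 ± 1.13 CPM with tazemetostat (SD, n = 3 each). On the basal side, CAV1, caveolin, had 596, 550.1 and 500.2 CPM in the ipatasertib libraries, against 191, 168 and 175 CPM in the tazemetostat libraries (edgeR log2 fold change 1.62 ± 0.0801 SE, adjusted p = 3.32e-11), whereas KRT15 had 166, 165 and 165 CPM in the ipatasertib libraries, against 585, 623 and 628 CPM in the tazemetostat libraries (edgeR log2 fold change -1.89 ± 0.0682 SE, adjusted p = 7.32e-13). KRT14 averaged 208 ± 13.7 CPM with ipatasertib and 115 ± 1.46 CPM with tazemetostat. Keratins form a family of close copies with pseudogenes, and reads shared among them are uncertain.

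Genes of the cornified epidermis had the lowest median of the lists with 10 or more tested members: 14 of 22 (63.6%) were lower, 4 higher, and the median was -1.14. KLK5 and KLK6, kallikrein proteases of shedding skin, had 385, 406 and 397 CPM with ipatasertib and 1241, 1268 and 1262 CPM with tazemetostat, and 70.3, 68.2 and 72.9 CPM with ipatasertib and 316, 351 and 344 CPM with tazemetostat (log2 fold change -1.67, adjusted p = 1.43e-12; log2 fold change -2.26, adjusted p = 2.41e-13). S100A8, a calprotectin subunit, had 4.61, 6.77 and 6.47 CPM in the ipatasertib libraries, against 80.8, 58.9 and 67 CPM in the tazemetostat libraries (edgeR log2 fold change -3.53 ± 0.139 SE, adjusted p = 2.10e-12). CLCA2, an adhesion-linked chloride channel regulator, had 2.75, 3.01 and 2.94 CPM in the ipatasertib libraries, against 38.5, 29.6 and 35.8 CPM in the tazemetostat libraries (edgeR log2 fold change -3.57 ± 0.129 SE, adjusted p = 7.81e-13). For these 4 genes the DMSO means of 639, 159, 36.8 and 20.8 CPM lay between the drugs. Kallikreins and S100 genes sit in clusters of related copies, so shared reads are uncertain. Of 12 milk and secretory genes tested, 7 were lower and 1 higher; the higher one, PIP, lost its call without the B library of either drug. SCGB2A2, mammaglobin, had 8.07, 10.4 and 8.14 CPM in the ipatasertib libraries, against 51.8, 37.2 and 47.7 CPM in the tazemetostat libraries (edgeR log2 fold change -2.37 ± 0.129 SE, adjusted p = 1.21e-10).

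Lysosomal genes mostly did not differ beyond the threshold or differed by little, but a few stood far apart. Of 39 tested, 14 (35.9%) were lower and 6 (15.4%) higher (median -0.02), beside 24.7% and 22.0% of all tested genes. GPNMB, a glycoprotein of lysosomes and melanosomes, had 162, 166 and 153 CPM in the ipatasertib libraries, against 608, 576 and 574 CPM in the tazemetostat libraries (edgeR log2 fold change -1.87 ± 0.07 SE, adjusted p = 9.55e-13). ATP6V0D2, a tissue-restricted subunit of the proton pump, had 16.3, 15.3 and 13.2 CPM with ipatasertib and 49.2, 42 and 44.1 CPM with tazemetostat, and TFEB, the regulator of lysosome genes, 4.21, 4.3 and 5.32 CPM with ipatasertib and 6.86, 10 and 9.99 CPM with tazemetostat. CTSF, a cathepsin, was higher, at 109, 101 and 106 CPM in the ipatasertib libraries, against 40.7, 46.3 and 44.5 CPM in the tazemetostat libraries (edgeR log2 fold change 1.27 ± 0.0785 SE, adjusted p = 6.24e-10). Genes tied to involution of the mammary gland after weaning were 10 higher and 9 lower of 25 (median 0.02); the higher ones included SAA1, SAA2, LIF and TIMP3, described above, and the lower ones CP, ceruloplasmin, at 27.7, 28.3 and 29.9 CPM with ipatasertib and 66.9, 63.8 and 69.5 CPM with tazemetostat. In the BCL-2 family, 4 of 17 (23.5%) were higher and 5 (29.4%) lower (3 without ipatasertib library A or C), shares near the 22.0% and 24.7% of all tested genes. BMF, a pro-death BH3-only protein tied to loss of attachment and to involution, had 25.7, 21.9 and 21.6 CPM in the ipatasertib libraries, against 46.8, 56.2 and 54.1 CPM in the tazemetostat libraries (edgeR log2 fold change -1.19 ± 0.0957 SE, adjusted p = 1.91e-08). BBC3, the BH3-only protein PUMA, was higher, at 11.4, 11.6 and 12 CPM with ipatasertib and 6.39, 6.73 and 6.59 CPM with tazemetostat. The pro-survival genes BCL2, at 13.4 ± 1.41 CPM with ipatasertib and 9.31 ± 0.219 CPM with tazemetostat, and BCL2L1, at 146 ± 5.68 CPM with ipatasertib and 105 ± 7.93 CPM with tazemetostat, were higher as well (SD, n = 3 each).

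Stress genes did not move one way. Of 21 tested 7 (33.3%) were higher and 6 (28.6%) lower (median -0.05), beside 22.0% and 24.7% of all tested genes. HMOX1, haem oxygenase, had 8.02, 8.33 and 8.42 CPM in the ipatasertib libraries, against 23.5, 23.6 and 25.9 CPM in the tazemetostat libraries (edgeR log2 fold change -1.56 ± 0.0971 SE, adjusted p = 6.29e-10). HSPB1, a small heat shock protein, had 172, 198 and 209 CPM with ipatasertib and 538, 526 and 566 CPM with tazemetostat, while HSPD1, the mitochondrial chaperonin, was higher at 991, 1028 and 956 CPM with ipatasertib and 638, 529 and 542 CPM with tazemetostat. In the amino acid and ATF4 response 6 of 28 (21.4%) were higher and 4 (14.3%) lower (median 0.01), no more than the 22.0% and 24.7% of all tested genes. Without the A libraries 10 were higher and 8 lower. SHMT2, a mitochondrial enzyme of serine use, had 231, 230.1 and 232 CPM with ipatasertib and 154, 164 and 164 CPM with tazemetostat, and ATF3, a stress factor, 10.2, 9.03 and 8.34 CPM with ipatasertib and 13.9, 16.7 and 16.2 CPM with tazemetostat.

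The DMSO and combination libraries place these differences, as a description with no test, since they share their scale with the rest but not the fit. Of the 305 genes higher by at least 1 on the log2 scale, the combination mean was nearer ipatasertib in 230 (75.4%) and the DMSO mean nearer tazemetostat in 229 (75.1%). Of the 1119 lower genes, the combination mean was nearer tazemetostat in 909 (81.2%) and the DMSO mean nearer ipatasertib in 919 (82.1%). Distances were taken on log2 of CPM plus 0.1. DMSO fell below both drugs in 368 of the 1119 lower genes and in 76 of the 305 higher ones, and between the drugs in 725 and 217. For GAS1, a growth arrest surface protein, the levels were 60.4, 55.3 and 52.8 CPM in the ipatasertib libraries, against 6.23, 5.94 and 6.8 CPM in the tazemetostat libraries (edgeR log2 fold change 3.15 ± 0.0997 SE, adjusted p = 1.89e-13), and 48.8 CPM with the combination beside 10.1 CPM with DMSO on average. For GPNMB the combination, at 880.2 CPM, exceeded both single drugs. For CES1, a carboxylesterase, the drugs lay on either side of DMSO: 30.5 ± 1.05 CPM with ipatasertib and 4.69 ± 0.328 CPM with tazemetostat, beside 9.36 CPM with the combination and 9.8 CPM with DMSO (SD, n = 3 each).

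**Figure D5:**
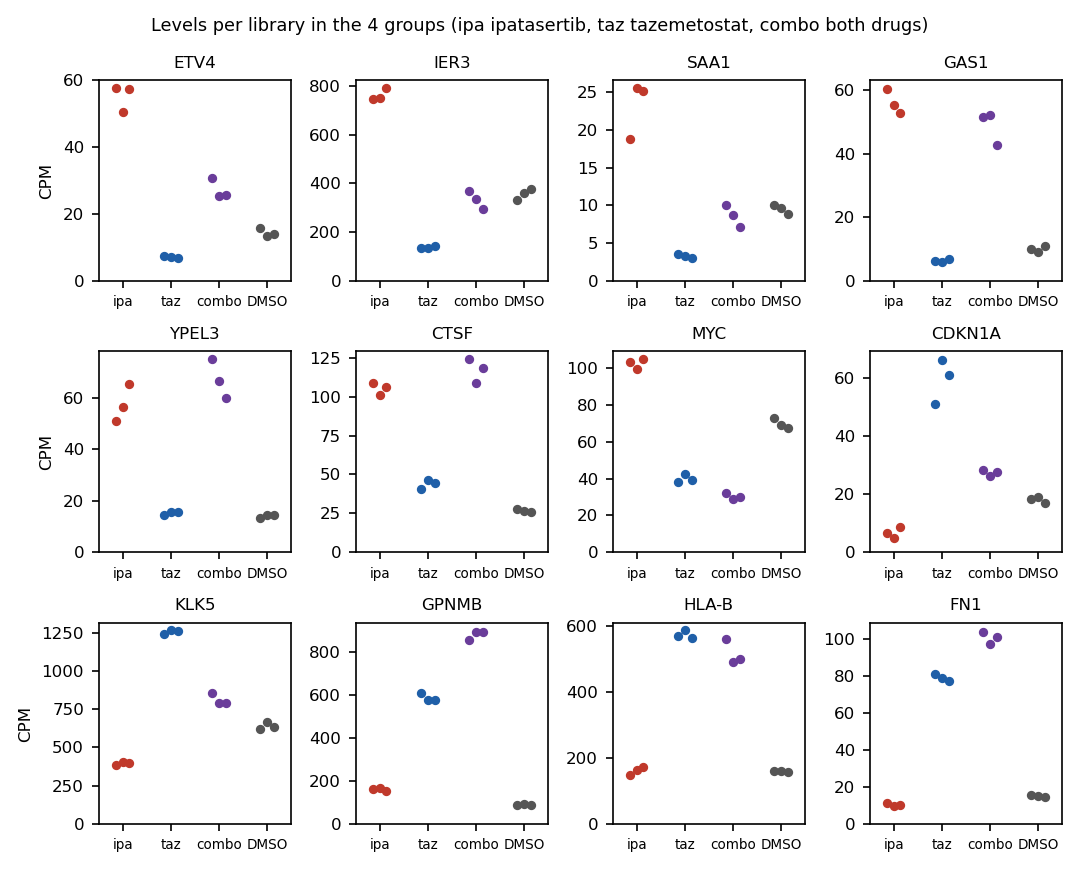
Level of 12 genes in each library of the 4 groups, in CPM on linear axes from 0, with 3 points per group: ipatasertib, tazemetostat, the combination and DMSO. DMSO lies near tazemetostat for YPEL3 and near ipatasertib for HLA-B and FN1, and between the drugs for IER3, SAA1, MYC, CDKN1A and KLK5.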

How the data were processed

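Of 12 sequenced poly(A) libraries of the cell line, the 3 ipatasertib and 3 tazemetostat libraries were compared. For each library the authors deposited raw counts of reads by gene symbol. Per the submitters' processing notes, STAR, SAMtools, HTSeq and DESeq2 were used with the build hg19. Their versions, the annotation and the strand setting are not given here, so overlapping antisense genes cannot be told apart. Rows that name no gene, which took the reads outside the gene shares of 63.2% and 66.2%, were left out.

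The 6 libraries were fitted by edgeR 4.0.16 under R 4.3.3 with 1 mean per group, which leaves 4 residual degrees of freedom. Genes passed filterByExpr at a minimum count of 10, totals were scaled by TMM, and the quasi-likelihood test (robust) was adjusted by Benjamini-Hochberg over 14153 genes at 0.05. CPM values use TMM-scaled totals, and those of DMSO and the combination come from a TMM scaling of the 12 libraries brought to the same scale. A fold against a group with no count is a bound against 3 counts over that group. A list's median was the same with such genes at their bound. In every list, a member silent in one group was tested only through the counts of the other. The procedure was tested on simulated counts. DESeq2 1.42.0 was an alternative.

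The comparison and the 37 gene lists were chosen with earlier results of these data known. Genes named by rule were the 15 largest differences each way (at least 5 CPM, groups not overlapping, a plain symbol), up to 4 called members of each list, the drug targets, markers, and the 10 most abundant genes read in 1 group. Other genes named were chosen after their values were seen. Promoters are RefSeq windows of GRCh38.p14, another build than that of the counts. A normalized table was not used here, and a few listed genes are not reported here.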

Additional observations from a re-analysis of the deposited data

How the results depend on the processing

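Of 149 genes followed singly, 144 kept their direction and their side of the threshold under all 14 alternatives, and none reversed; the exceptions (KDM6A, MKI67, CTSS, AKT1 and AKT2) are given with their values above. The count of genes higher with ipatasertib ran from 2439 to 3277 and of genes lower from 3019 to 3751 when each library was left out. Without the A library of both groups, 7758 of 14360 tested genes were called, 3698 higher and 4060 lower. More genes then differed than did not. Under the stricter filter of 50 counts in 3 libraries, 12194 genes were tested. Of these, 183 were higher and 635 lower by at least 1 on the log2 scale. The filter removes genes with low counts, and many of the large differences lay in genes under 1 CPM in one group. Of genes read only with tazemetostat, 16 had at least 5 CPM and 47 had no count at all with ipatasertib; the corresponding numbers read only with ipatasertib were 0 and 0. Leaving out single libraries, the number read only with ipatasertib ranged from 1 to 3. Without a filter 12 class II genes were called lower, and with the stricter one 2. Library totals in place of TMM factors put 41.4% of calls on the higher side, against 47.1%. With a replicate block, 2570 genes were higher and 3081 lower. Same-lettered libraries correlated at -0.187, -0.369 and 0.169 in their deviations from the group means, and 1 of 3 matched its own letter best, so the letters were not taken to pair the libraries. The block left 7 mitotic and 3 BCL-2 family genes lower and ended the call of MKI67 (adjusted p = 0.0612). With 3 libraries a group, each gene has 4 residual degrees of freedom of its own. The quasi-likelihood test adds to these by borrowing spread across genes, so the very small p-values rest on that shared spread too. Genes under about 1 CPM are limited by depth.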

Other observations

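Several of the widest differences lay outside the pathways described. Among them were PSG9 and PSG5, which encode pregnancy-specific glycoproteins, placental members of the carcinoembryonic antigen family. PSG9 had 17.1, 16.1 and 16.7 CPM with ipatasertib and 3.22, 3.05 and 3.19 CPM with tazemetostat, and PSG5 had 20, 17.9 and 18.5 CPM with ipatasertib and 4.7, 3.95 and 4.11 CPM with tazemetostat (log2 fold change 2.15, adjusted p = 7.48e-11 by edgeR). Both are close copies within 1 gene cluster, so reads shared among them are uncertain. With the combination PSG5 averaged 49.9 CPM, beside 1.51 CPM with DMSO. TFPI2, a secreted protease inhibitor also abundant in placenta, had 27.2, 30.6 and 27.2 CPM with ipatasertib and 7.18, 5.19 and 6.04 CPM with tazemetostat (log2 fold change 2.22, adjusted p = 7.48e-11 by edgeR), and 68.8 CPM with the combination. ABTB1, an ankyrin and BTB protein, had 19.2, 24.2 and 22.9 CPM with ipatasertib and 4.33, 4.33 and 3.99 CPM with tazemetostat, and OSBP2, an oxysterol-binding protein, 136, 129.9 and 139 CPM with ipatasertib and 24.4, 33.8 and 29.9 CPM with tazemetostat. That all ipatasertib libraries lay above all tazemetostat libraries in these genes was part of the rule that picked them.

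On the lower side, HSPB8, a small heat shock protein, had 0.0887, 0.107 and 0 CPM with ipatasertib and 11.8, 11.4 and 10.4 CPM with tazemetostat, and MAF, a leucine zipper factor, 0, 0 and 0.0794 CPM with ipatasertib and 7.6, 6.7 and 6.21 CPM with tazemetostat. EDIL3, an integrin ligand, had 0, 0.0537 and 0 CPM with ipatasertib and 8.71, 7.6 and 9.11 CPM with tazemetostat, and GPM6A, a neuronal membrane glycoprotein, 0.0443, 0.0537 and 0 CPM with ipatasertib and 6.23, 5.53 and 6.42 CPM with tazemetostat. In these 4 genes no ipatasertib library exceeded 0.107 CPM. The combination averaged 17.4 CPM for HSPB8 and 10 CPM for MAF, above tazemetostat alone, but 4.61 CPM for EDIL3 and 1.67 CPM for GPM6A, below it.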
